A study of Mus musculus with 4 samples.

Results

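Gata2, Myb, Jak3, Rac2, Rasgrp2, Gngt2, Tal1, Lyl1, Lmo2 and Runx1, genes known for their roles in blood cells, were followed in mouse embryonic stem cells (mESCs) with and without a mutation of the clock gene Bmal1. They are 10 of the 37310 genes of the deposited table and were found there by their Ensembl identifiers. Gata2, Myb, Jak3, Rac2, Rasgrp2 and Gngt2 were chosen by their lower normalized values in the mutant libraries, the same values that are described here. Their differences are therefore given as a description, with no test. The other 4 members, Tal1, Lyl1, Lmo2 and Runx1, are the usual companions of Gata2 in blood stem cells.

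The data are mRNA-seq of 4 cultures of JM8 mESCs, which derive from the C57BL6/N mouse strain. There were 2 libraries of wild-type cells and 2 of Bmal1 -/- cells. All 4 cultures grew without feeder cells on gelatin in 2i + LIF medium, that is, with LIF, 1 µM PD0325901 (a Mek inhibitor) and 3 µM CHIR99021 (a Gsk3 inhibitor). The Bmal1 -/- line is a single clone made with CRISPR/Cas9, in which both alleles are mutated, and wild-type means the parental JM8 line, so that genotype and clone cannot be told apart. Library totals ranged from 21504265 to 23329034 reads on genes, and 3 reads corresponded to a normalized value of 2.82 to 3.19. The targeted gene, listed as Arntl, still had reads in the libraries labelled Bmal1 -/-, at 556 and 590 against 678 and 733 in wild-type (81.2% of the wild-type mean, log2 difference -0.30, limma adjusted p = 0.0011). Its level in these libraries therefore does not identify the genotype. The paper, by contrast, did not detect Bmal1 mRNA by RT-qPCR in its Bmal1 -/- cells, nor Bmal1 protein by Western blot. Why the 2 RNA measurements differ was not tested. All 11 pluripotency markers measured passed the filter on low values, led by Dppa5a with normalized values of 43077 to 49575.

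In the embryo and in bone marrow, blood stem cells depend on a small circuit of transcription factors. Gata2 binds DNA as a zinc-finger protein and works together with the basic helix-loop-helix proteins Tal1 and Lyl1, the bridging protein Lmo2 and the Runt-domain protein Runx1, while Myb keeps blood progenitors dividing. Jak3, Rac2, Rasgrp2 and Gngt2 act below the receptors of mature blood cells. Jak3 is the kinase bound to the common gamma chain of interleukin receptors, Rac2 is a small GTPase of blood cells, Rasgrp2 loads Rap1 with GTP when calcium rises in platelets and neutrophils, and Gngt2 is a gamma subunit of heterotrimeric G proteins first known from cone photoreceptors.

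Gata2 and Myb were each present at about 100 reads per wild-type library and at far fewer in the libraries labelled Bmal1 -/-. The normalized values of Gata2 (ENSMUSG00000015053, chr6:88143885-88157024, plus strand, mm9) were 101 and 138 in wild-type and 33.8 and 42.0 in Bmal1 -/-. The mutant mean was 31.7% of the wild-type mean (120 ± 26.1 against 37.9 ± 5.76, SD, n = 2 each), a difference of -1.62 on the log2(value + 1) scale (standard error 0.19). Both mutant libraries were below both wild-type libraries, and the gap between the labels was wider than the gap within either. For Myb (ENSMUSG00000019982, chr10:20844736-20880790, minus strand) the values were 111 and 98.8 in wild-type and 21.6 and 33.4 in Bmal1 -/-. This left 26.3% of the wild-type mean, a log2 difference of -1.92 (standard error 0.22), again with no overlap. Among the 14510 genes with a mean normalized value of at least 10, 11 had a lower log2 difference than Myb and 43 a lower one than Gata2. Both genes were chosen for their lower mutant values, so nothing is read from these ranks.

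The other blood transcription factors among the members were near the detection limit in both lines. Tal1 (ENSMUSG00000028717, chr4:114729031-114744360) had values of 10.5 and 8.50 in wild-type and of 14.1 and 4.77 in Bmal1 -/-, which correspond to 10, 8, 15 and 5 reads. The mutant libraries lay on either side of the wild-type libraries, and the ratio of the labels in reads per library total was 0.994, with a 95% exact binomial interval of 0.499 to 1.99 that covers counting error only. Lyl1 (ENSMUSG00000034041, chr8:87225356-87228614) had 8 and 2 reads in wild-type and 3 and 2 in Bmal1 -/-, a ratio of 0.447 (0.120 to 1.44). Runx1 (ENSMUSG00000022952, chr16:92601712-92826311) had 7 and 6 reads under either label, a ratio of 0.895 (0.382 to 2.09). For these 3 genes the groups overlapped, none passed the filter of a mean of 10, and a change as large as that of Gata2 was outside the interval for Tal1 and Runx1 but inside it for Lyl1.

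Lmo2 (ENSMUSG00000032698, chr2:103798143-103822035) went the other way. Its normalized values were 25.3 and 26.6 in wild-type and 35.7 and 39.1 in Bmal1 -/-, so that the mutant mean was 144% of the wild-type mean. The log2 difference was 0.51 (standard error 0.25) and the groups did not overlap, although the counting interval of the ratio of 1.44 ran from 0.997 to 2.10. With quantile normalization in place of the scaling of the authors, the log2 difference of Lmo2 dropped to 0.24.

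**Figure D1:**
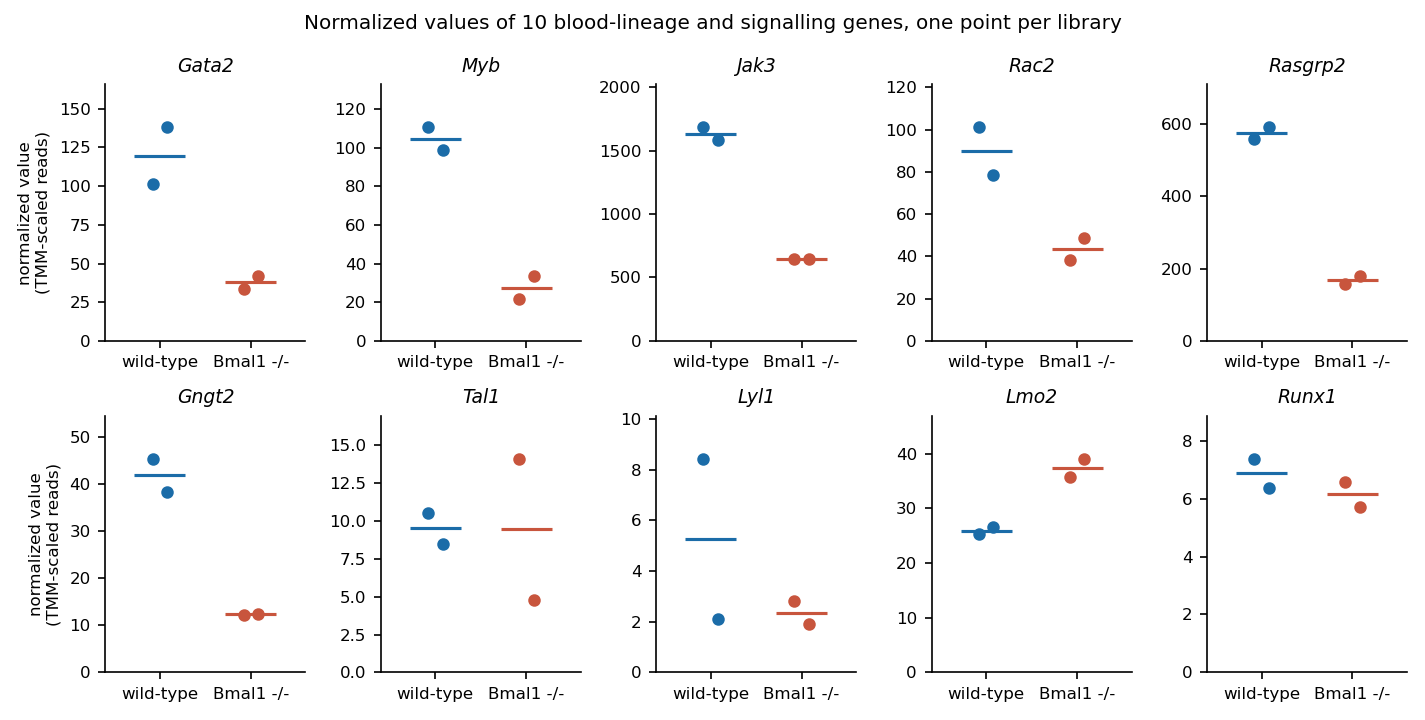
Normalized value (linear axis from 0, TMM-scaled reads) of each of the 10 genes in the 2 wild-type (blue) and 2 Bmal1 -/- (red) libraries, with a bar at each group mean. The mutant points lie below the wild-type points for Gata2, Myb, Jak3, Rac2, Rasgrp2 and Gngt2, above them for Lmo2 and among or close to them for Tal1, Lyl1 and Runx1.

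The promoters of these regulators were read from the RefSeq promoter table of the mouse genome build GRCm38.p6, which gives 250 bases before and 50 bases after each transcription start. It held 11 promoters of 7 members (Gata2, Myb, Jak3, Rasgrp2, Tal1, Lyl1 and Runx1) among 32851 promoters. Shown are the first promoter of Gata2, the only ones of Myb and Jak3, and the first of Tal1 and second of Runx1, in which searched letters were found. Capitals mark CACGTG (the E-box read by Bmal1 and Clock), CAGATG or its reverse CATCTG (the E-box read by Tal1), TTATCT (the reverse of AGATAA, read by Gata proteins), CAGTTA (the reverse of TAACTG, read by Myb) and ACCACA (the reverse of TGTGGT, read by Runx proteins).
Gata2 promoter at chr6:88193641-88193940, plus strand: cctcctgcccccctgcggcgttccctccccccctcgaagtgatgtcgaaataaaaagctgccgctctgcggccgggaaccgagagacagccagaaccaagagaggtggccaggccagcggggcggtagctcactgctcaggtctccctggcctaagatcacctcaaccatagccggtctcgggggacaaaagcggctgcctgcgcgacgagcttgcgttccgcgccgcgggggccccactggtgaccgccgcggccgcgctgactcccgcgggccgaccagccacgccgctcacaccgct
Myb promoter at chr10:21160935-21161234, minus strand: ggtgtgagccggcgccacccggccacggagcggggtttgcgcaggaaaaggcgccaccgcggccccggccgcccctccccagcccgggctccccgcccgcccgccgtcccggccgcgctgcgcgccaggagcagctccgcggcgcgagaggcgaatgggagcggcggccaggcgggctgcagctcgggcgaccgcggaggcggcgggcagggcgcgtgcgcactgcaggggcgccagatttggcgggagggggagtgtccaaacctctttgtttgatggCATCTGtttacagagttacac
Jak3 promoter at chr8:71676133-71676432, plus strand: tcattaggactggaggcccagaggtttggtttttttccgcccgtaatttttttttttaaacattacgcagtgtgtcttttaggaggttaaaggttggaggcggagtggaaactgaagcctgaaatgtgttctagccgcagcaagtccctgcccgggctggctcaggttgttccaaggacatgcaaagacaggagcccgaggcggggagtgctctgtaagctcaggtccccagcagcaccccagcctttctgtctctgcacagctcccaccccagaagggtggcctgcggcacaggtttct
Tal1 promoter at chr4:115056176-115056475, plus strand: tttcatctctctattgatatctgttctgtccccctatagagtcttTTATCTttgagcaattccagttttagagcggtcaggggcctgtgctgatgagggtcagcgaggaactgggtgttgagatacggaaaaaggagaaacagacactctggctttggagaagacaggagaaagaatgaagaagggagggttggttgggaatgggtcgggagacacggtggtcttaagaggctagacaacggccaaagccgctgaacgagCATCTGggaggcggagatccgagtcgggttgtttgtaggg
Runx1 promoter at chr16:92826025-92826324, minus strand: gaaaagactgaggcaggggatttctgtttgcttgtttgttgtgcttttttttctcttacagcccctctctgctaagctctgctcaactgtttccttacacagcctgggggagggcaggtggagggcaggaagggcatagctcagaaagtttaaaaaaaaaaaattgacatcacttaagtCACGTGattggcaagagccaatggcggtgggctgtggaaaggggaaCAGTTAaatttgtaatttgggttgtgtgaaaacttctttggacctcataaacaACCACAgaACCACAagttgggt
Searched on both strands, CACGTG was found in 1 member promoter, that of Runx1 at position -71 from the start, and in 7.15% of all promoters. CAGATG stood in the promoters of Myb (position 30) and Tal1 (position 11) and in 17.2% of all promoters. AGATAA was found in Tal1 at position -205 (11.2% of all promoters), TAACTG in Runx1 at position -25 (10.1%) and TGTGGT in Runx1 at positions 29 and 37 (16.8%). TGATAA and TAACGG, present in 9.05% and 2.76% of all promoters, were in no member promoter. No searched letters were in the windows of Gata2, Jak3, Rasgrp2 or Lyl1. The member promoters held between 45.0% and 80.0% G and C, with a median of 52.7% over all promoters. These are matches of letters only, and no binding was measured in this series.

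Jak3 and Rasgrp2 were the most strongly read members. Jak3 (ENSMUSG00000031805, chr8:74200195-74214474, plus strand) had values of 1683 and 1584 in wild-type and 643 and 648 in Bmal1 -/-. The mutant mean was 39.5% of the wild-type mean, a log2 difference of -1.34 (standard error 0.06), the most precise among the members. The mutant values all but coincided and lay far below both wild-type values. Rasgrp2 (ENSMUSG00000032946, chr19:6399340-6415216, plus strand) had 559 and 591 in wild-type and 156 and 179 in Bmal1 -/-, which is 29.1% of the wild-type mean and a log2 difference of -1.78 (standard error 0.09). For both genes the groups were far apart relative to the spread within each label.

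Rac2 and Gngt2 rested on fewer reads. Rac2 (ENSMUSG00000033220, chr15:78389599-78403213, minus strand) had 101 and 78.6 in wild-type and 38.5 and 48.6 in Bmal1 -/-, or 48.5% of the wild-type mean, a log2 difference of -1.03 (standard error 0.20). Rac2 was the member closest to a 2-fold difference, and it crossed that line with some settings: the log2 difference was -0.85 without wild-type replicate 1 and -0.90 with a pseudocount of 10. Gngt2 (ENSMUSG00000038811, chr11:95698530-95707048, plus strand) had 45.3 and 38.2 in wild-type and 12.2 and 12.4 in Bmal1 -/-, which were 43, 36, 13 and 13 reads. Its mutant mean was 29.5% of the wild-type mean, with a log2 difference of -1.68 (standard error 0.29) that shrank to -1.21 with a pseudocount of 10. Neither gene had overlapping groups.

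Of the 7 members that passed the filter, 6 had lower values in both mutant libraries than in both wild-type libraries, as did 41.4% of all genes tested, and all 6 were over 2-fold lower, as were 1.46% of all genes tested. Since the 6 genes were picked for this difference, nothing is read from that count. Only Lmo2 was higher without overlap, as were 34.6% of genes tested. The remaining 3 members did not pass the filter. With reads divided by exon length and library total (RPKM, scaled to the reads on genes), the members can be compared with each other only roughly. The length is the union of all annotated exons, so RPKM is too low where shorter transcripts are made. That length was 12384 bases for Rasgrp2 and 1800 to 7798 bases for the other members, so the place of Rasgrp2 in the order is not settled. In wild-type cells Jak3 stood at 13.3 RPKM, above 69.1% of the genes tested, whereas Rasgrp2 was at 2.03, Gata2 at 1.56, Rac2 at 1.29, Myb at 1.21, Gngt2 at 0.973 and Lmo2 at 0.523. Tal1 (0.0950), Lyl1 (0.128) and Runx1 (0.0385) were lower still. In Bmal1 -/- cells Jak3 was at 5.49 RPKM and still first, Lmo2 was second at 0.787, and Rac2 (0.654), Rasgrp2 (0.617) and Gata2 (0.515) followed, with Myb at 0.332 and Gngt2 at 0.299. The wild-type ranges of Gata2 (1.32 to 1.80), Rac2 (1.13 to 1.45) and Myb (1.15 to 1.28) overlapped, so the order of these 3 is not resolved. In Bmal1 -/- the ranges of Rac2 (0.579 to 0.730) and Rasgrp2 (0.575 to 0.659) overlapped, and so did those of Myb (0.261 to 0.403) and Gngt2 (0.297 to 0.301).

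**Figure D2:**
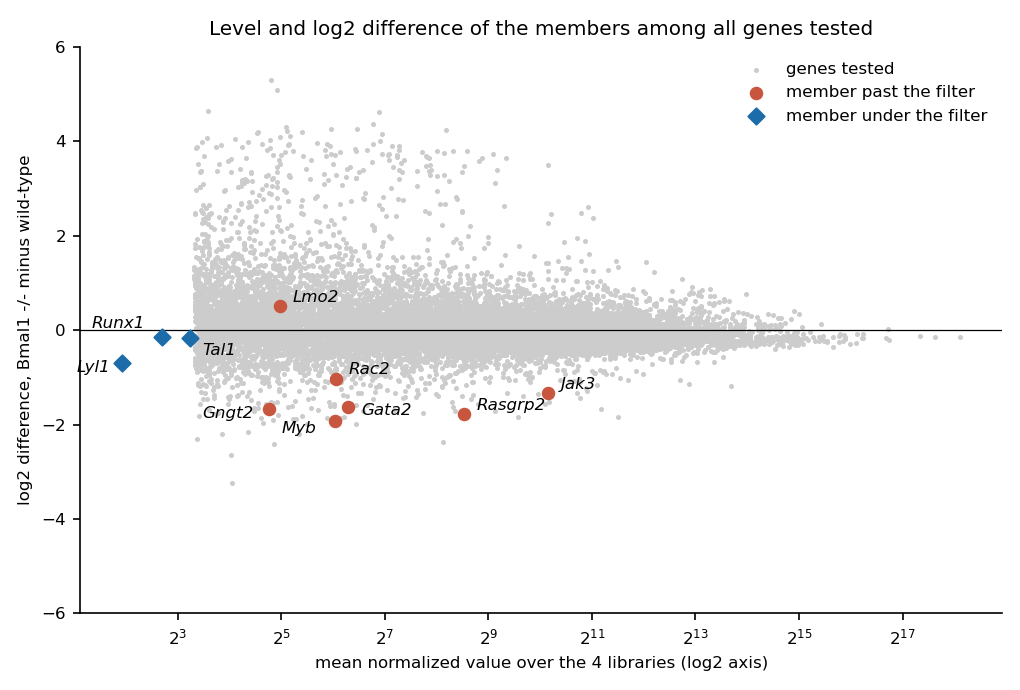
Mean normalized value over the 4 libraries (log2 axis) against the log2 difference, Bmal1 -/- minus wild-type, of the 14510 genes tested (grey), of the 7 members past the filter (red circles) and of the 3 under it (blue diamonds). Jak3 and Rasgrp2 stand at higher levels than the other lower members, and Tal1, Lyl1 and Runx1 lie left of the genes tested.

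The paralogs of the members moved in both directions. Of 34 paralogs, 20 passed the filter, and 8 of them fell and 7 rose at an adjusted p-value under 0.05 (limma, Benjamini-Hochberg over all genes), with a median log2 difference of -0.14 against -0.03 over all genes tested. Of all genes tested, 28.6% fell and 24% rose by this rule. On the log2(value + 1) scale no paralog passed a 2-fold limit, with Rac3 just short of it, and 1.45% of all genes passed it as lower and 5.75% as higher.

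In the Gata family, Gata4, an endoderm and heart regulator, rose while Gata2 was lower. Gata4 had 69.5 and 85.0 in wild-type and 120 and 107 in Bmal1 -/- (log2 difference 0.55, adjusted p = 0.0061), a call that was lost without Bmal1 -/- replicate 1 (adjusted p = 0.087). The share of Gata2 in the RPKM of all 6 Gata genes was 53.3% and 59.5% in wild-type and 21.9% and 26.2% in Bmal1 -/-. The mean share of Gata4 was 31.4% in wild-type and 61.9% in Bmal1 -/-, so that the leading Gata transcript differed between the lines. Gata1, Gata3 and Gata6 had 13 reads or fewer in every library, and Gata5 was listed at 0 in all.

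In the Myb family, Mybl2, the member of dividing cells of all types, was at 13111 and 12787 in wild-type and 12830 and 12663 in Bmal1 -/- (log2 difference -0.02, adjusted p = 0.63). Mybl2 held 96.0% of the family's RPKM in wild-type and in Bmal1 -/-, and Myb 0.952% and 0.254%. Mybl1, known from male meiosis, rose by 0.29 (adjusted p = 0.0024, and 0.054 without Bmal1 -/- replicate 2). Myb was therefore a minor transcript of its family in either line.

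Among the Janus kinases, Jak3 was the most abundant in wild-type and the third in Bmal1 -/-. Its share of the family's RPKM was 41.7% and 40.9% in wild-type and 19.5% and 19.7% in Bmal1 -/-. Jak1, which signals below the Lif receptor, rose by 0.34 on the log2 scale (adjusted p = 1.6e-05). Jak2 rose by 0.52, from 243 and 251 to 364 and 345 (adjusted p = 6.5e-05). Tyk2 had a log2 difference of -0.11 (adjusted p = 0.16). With these changes the mean share of Jak1 was 27.2% in wild-type and 41.3% in Bmal1 -/-.

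In the Rac and Rasgrp families the called paralogs fell, while those of the Gata and Jak families rose. Few paralogs were called in each family, and over all genes tested 28.6% fell and 24% rose, so nothing is read from this contrast. Rac3, the form known from brain, fell from 196 and 169 to 86.4 and 95.4 (log2 difference -0.99, adjusted p = 3.8e-06), close to the difference of Rac2. The ubiquitous Rac1 fell by 0.32 (adjusted p = 8.4e-06) and Cdc42 by 0.21 (adjusted p = 2.0e-04), and Rhog was at -0.05 (adjusted p = 0.77). Rac2 made up 0.656% of this family's RPKM in wild-type and 0.381% in Bmal1 -/-. Rasgrp1, the T-cell form, fell by 0.65 (adjusted p = 9.1e-06) and Rasgrp4, the mast-cell form, by 0.28 (adjusted p = 0.0062, and 0.064 without Bmal1 -/- replicate 2). The share of Rasgrp2 was 25.9% and 25.5% of the family's RPKM in wild-type and 11.5% and 12.9% in Bmal1 -/-, with Rasgrp3 at 4 reads or fewer. The size of this share in either line depends on the union exon length, 12384 bases for Rasgrp2, 5598 for Rasgrp1 and 6359 for Rasgrp4.

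**Figure D3:**
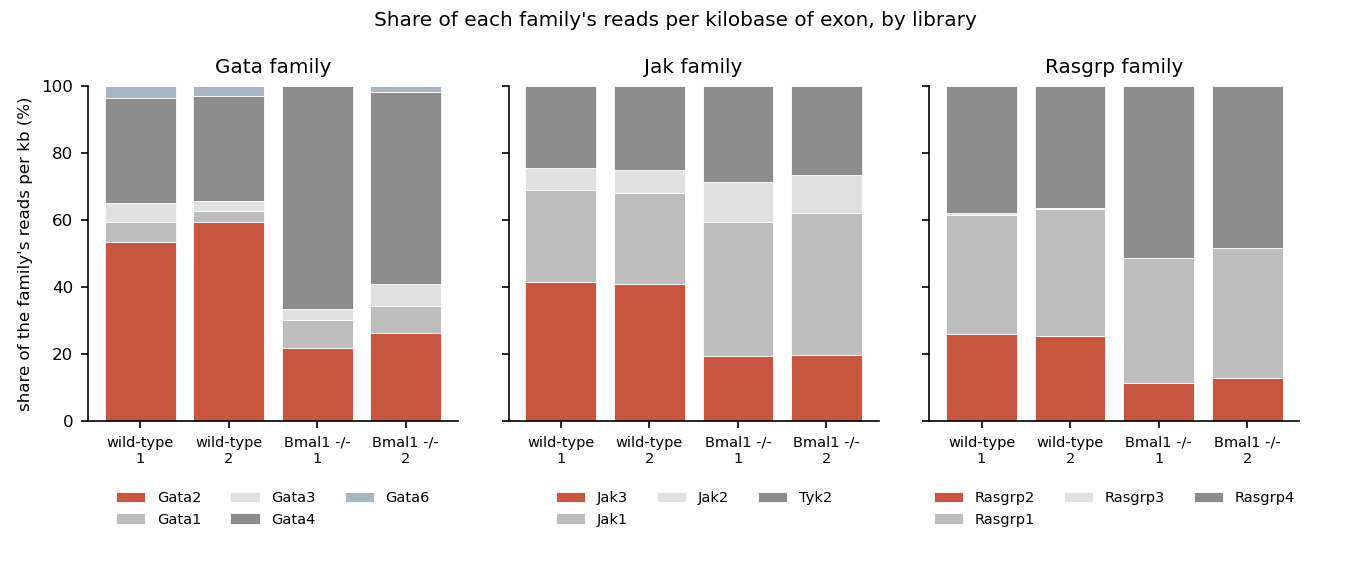
Share (%) of each gene in the summed reads per kilobase of exon of its family, in each of the 4 libraries, for the Gata, Jak and Rasgrp families, with the member in red. Red falls from 53.3% and 59.5% to 21.9% and 26.2% for Gata2, from 41.7% and 40.9% to 19.5% and 19.7% for Jak3, and from 25.9% and 25.5% to 11.5% and 12.9% for Rasgrp2.

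Among G protein gamma subunits, Gng3 and Gng5 fell by 0.94 (adjusted p = 1.7e-06) and 0.57 (adjusted p = 8.0e-08). Gng7 fell by 0.38 (adjusted p = 0.023), a call lost without either mutant library or without wild-type replicate 2 (adjusted p up to 0.15). Gng12 rose by 0.31 (adjusted p = 6.6e-04), and Gng2 was at -0.18 (adjusted p = 0.25). Gngt2 held 2.49% of the RPKM of this family in wild-type and 0.994% in Bmal1 -/-, and its rod counterpart Gngt1 was listed at 0 in all libraries. In the Lmo family, both tested relatives of Lmo2 rose. Lmo1 was at 0.54 (adjusted p = 0.039) and Lmo4 at 0.28 (adjusted p = 0.045), but both calls were lost when single libraries were left out (adjusted p up to 0.17 and 0.38, without Bmal1 -/- replicate 1 and without wild-type replicate 1, with Lmo4 at 0.14 in the latter and at 0.43 without wild-type replicate 2). Runx3 was at -0.49 (adjusted p = 0.16), and Runx2 and Tal2 had 4 reads or fewer.

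**Figure D4:**
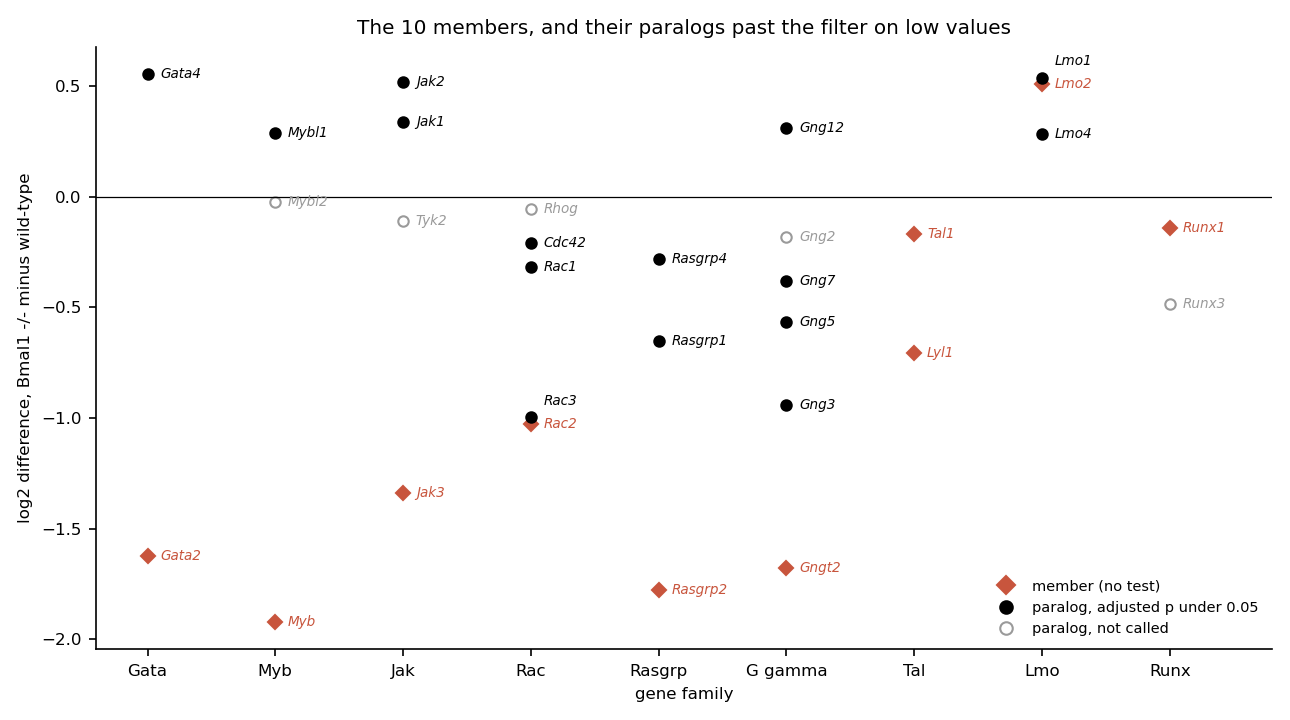
Log2 difference, Bmal1 -/- minus wild-type, of the 10 members (red diamonds, no test) and of the 20 paralogs past the filter (filled black, adjusted p under 0.05; open, not called), by gene family. Paralogs lie between -0.99 (Rac3) and 0.55 (Gata4), and Gata2, Myb, Jak3, Rac2, Rasgrp2 and Gngt2 lie at -1.03 or below. The latter genes were chosen for their lower mutant values, so nothing is read from their distance to the paralogs.

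Proteins that form complexes with Gata2, Tal1, Lmo2 or Runx1 were examined as a list. For this and each later list, the shares over all genes tested were 28.6% lower and 24% higher. Of 13 such partners, 11 passed the filter, of which 4 fell and 2 rose, with a median log2 difference of -0.03. The Lmo2-binding adaptor Ldb1 fell by 0.32 (from 4884 and 4946 to 3989 and 3871, adjusted p = 1.6e-06). The E protein Tcf3, which pairs with Tal1, fell by 0.39 (adjusted p = 7.8e-07), and the Ldb1-binding Ssbp4 by 0.26 (adjusted p = 1.4e-04). Zfpm1, the Gata cofactor Fog1, rose by 0.45 (adjusted p = 8.6e-04), and the E protein Tcf12 by 0.20 (adjusted p = 0.0028, and 0.057 without Bmal1 -/- replicate 2).

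Among other transcription factors of blood cells, more rose than fell. Of 25 listed, 24 were matched and 13 passed the filter, of which 5 rose and 2 fell, with a median log2 difference of 0.23. Of these, 3 rose over 2-fold, as did 5.75% of all genes tested. Mecom, a regulator of blood stem cells, rose from 24.2 and 23.4 to 160 and 179 (log2 difference 2.78, adjusted p = 9.0e-11). Hoxa9, a progenitor homeobox gene, was at 2.11 and 3.19 in wild-type and at 17.8 and 21.0 in Bmal1 -/- (adjusted p = 1.8e-04). The wild-type values were 2 and 3 reads. Hoxa9 passed the filter only through its mutant libraries, and with no filter its adjusted p was 0.144. Its log2 difference of 2.497 became 1.22 with a pseudocount of 10. Cebpa, the granulocyte regulator, rose from 16.9 and 12.8 to 51.7 and 35.3 (log2 difference 1.48, adjusted p = 2.6e-04). Ebf1 fell by 0.27 and Etv6 by 0.15 (adjusted p = 0.019 and 0.030). Both of these calls were lost without wild-type replicate 1 (adjusted p = 0.15 and 0.26, with Etv6 at -0.08) and without Bmal1 -/- replicate 1 (adjusted p = 0.16 and 0.088), and that of Etv6 also without Bmal1 -/- replicate 2 (adjusted p = 0.15).

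Jak3 works with the interleukin receptors that share the common gamma chain. Of 19 genes of the common gamma chain receptors and the Jak-Stat pathway, 13 passed the filter, with 6 that fell, 1 that rose and a median log2 difference of -0.04. The common gamma chain itself, Il2rg, had 41.1 and 36.1 in wild-type and 26.3 and 14.3 in Bmal1 -/- (log2 difference -0.95, adjusted p = 0.011), but without Bmal1 -/- replicate 2 the difference was -0.53 (adjusted p = 0.19). The ligand-specific chains Il2ra, Il7r and Il21r were listed at 0 in all libraries. Of the feedback inhibitors, Socs2 fell by 0.51 (from 1151 and 1125 to 805 and 796, adjusted p = 3.4e-07). Cish fell by 0.54 (adjusted p = 0.0496), a call lost without either mutant library or without wild-type replicate 2, where the difference was -0.32 (adjusted p = 0.34).

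Of 23 regulators and effectors of Rac, 20 passed the filter, with 6 that rose, 6 that fell and a median of -0.06. Elmo1, part of the Dock exchange factor that loads Rac, fell from 663 and 644 to 331 and 316 (log2 difference -1.01, adjusted p = 7.3e-10). Tiam2 (-0.56, adjusted p = 2.3e-05) and the effector kinase Pak1 (-0.42, adjusted p = 5.7e-06) fell as well. Cybb, the membrane subunit of the phagocyte oxidase that Rac2 activates, was at 0 and 4.25 in wild-type and at 23.5 and 27.7 in Bmal1 -/- (adjusted p = 7.4e-05). It passed the filter only through its mutant libraries, and with no filter its adjusted p was 0.29. Its log2 difference of 3.53 became 2.34 without wild-type replicate 1, which held 0 reads, and 1.57 with a pseudocount of 10. The blood-cell exchange factors Vav1 and Dock2 rose by 0.94 (adjusted p = 0.033) and 0.92 (adjusted p = 0.0046). The call of Vav1 was lost without either mutant library or without wild-type replicate 2 (adjusted p up to 0.25).

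Rasgrp2 acts on Rap and Ras proteins, and of 21 matched genes of that pathway 20 passed the filter. Of these, 7 fell and 5 rose, with a median log2 difference of -0.09. Rap1gap, which switches Rap1 off, fell by 0.44 (adjusted p = 0.0011), Nras by 0.33 (adjusted p = 2.5e-06) and Mras by 0.30 (adjusted p = 6.8e-05). The direct substrates Rap1a and Rap1b were at -0.12 and -0.10 (adjusted p = 0.17 and 0.060). Rapgef3, another exchange factor for Rap1, rose by 0.56 (adjusted p = 3.5e-04), and Rasa3 by 0.47 (adjusted p = 2.3e-05). Fermt3, a partner of integrins in blood cells, rose by 0.29 (adjusted p = 0.046), a call that no fit without a library kept (adjusted p of 0.058 to 0.30).

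All 8 tested G protein beta, transducin and inhibitory alpha subunits passed the threshold, 6 lower and 2 higher, with a median of -0.27. Gnat1, the rod transducin alpha subunit, fell from 34.8 and 32.9 to 12.2 and 19.1 (log2 difference -1.10, adjusted p = 0.0046, and 0.070 without Bmal1 -/- replicate 1). Gnai2 fell by 0.43 (adjusted p = 2.5e-08). Gnb5 fell by 0.49 (adjusted p = 0.045), a call that no fit without a library kept (adjusted p of 0.078 to 0.21). The 2 that rose, Gnb4 and Gnai1, differed by 0.20 each (adjusted p = 0.048 and 0.027), and both calls were lost when single libraries were left out (adjusted p up to 0.25 and 0.19, without Bmal1 -/- replicate 2).

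**Figure D5:**
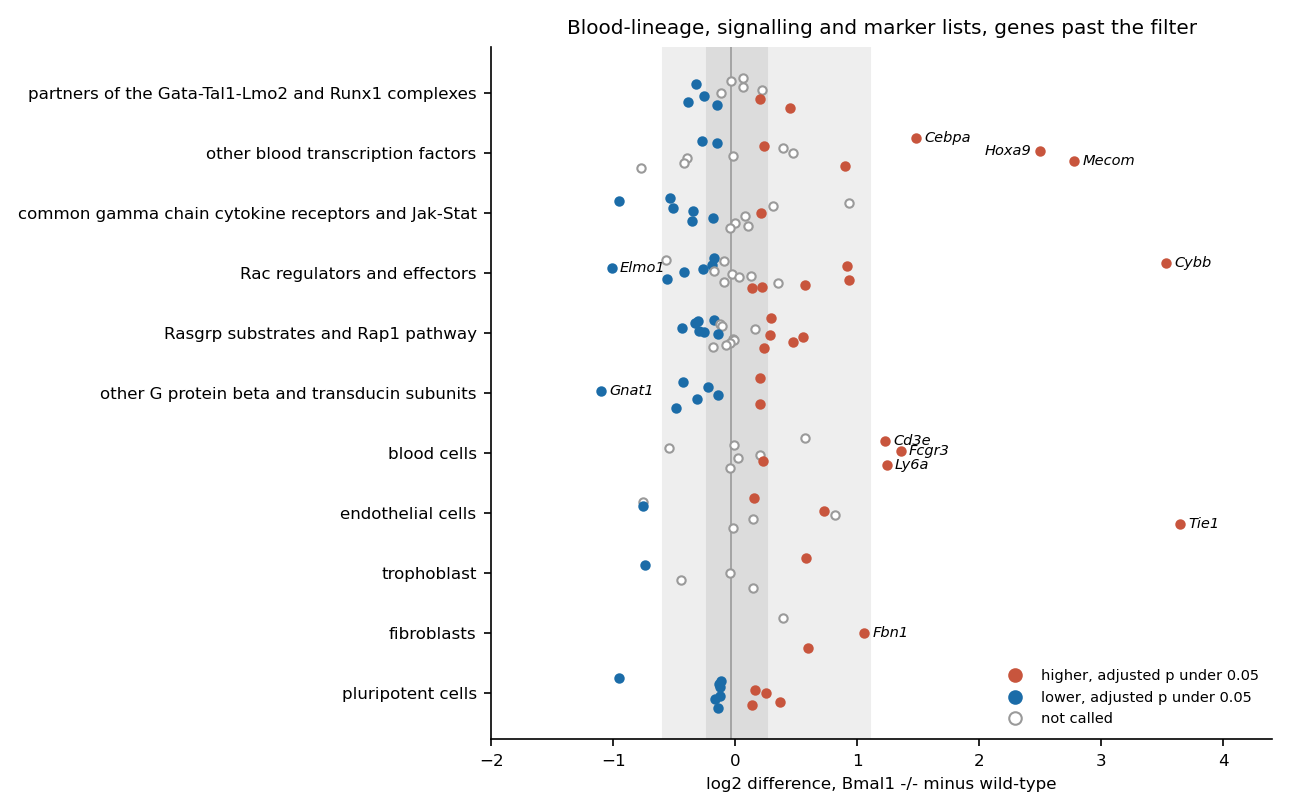
Log2 difference, Bmal1 -/- minus wild-type, of each gene past the filter in 6 pathway lists and 5 marker lists (red higher, blue lower, both adjusted p under 0.05; open, not called), over the range of all genes tested (dark band, percentiles 25 to 75; light band, percentiles 5 to 95; line, median -0.03). Mecom, Hoxa9, Cybb and Tie1 lie furthest to the right, Tie1 at 3.65, and Gnat1 and Elmo1 furthest to the left.

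In bulk RNA, fewer cells of a type and less RNA per cell cannot be told apart, so markers of other cells were set beside the members. Of 34 blood cell markers, 10 passed the filter, 4 rose and none fell, and 12 were listed at 0 in every library. Over all genes tested, 24% rose and 28.6% fell, and 5.75% rose over 2-fold. Those at 0 included Mpo, Elane, Lyz2, Emr1 and 5 globin genes, and the pan-leukocyte gene Ptprc had 1 read in 1 library. Fcgr3 (1.36, adjusted p = 1.3e-04), Ly6a (1.24, adjusted p = 0.018) and Cd3e (1.23, adjusted p = 1.0e-07) rose over 2-fold. Ly6a was at 0.71 without Bmal1 -/- replicate 1 and lost its call (adjusted p = 0.34), and Fcgr3 was at 0.79 without wild-type replicate 2. The highest marker was the stem cell factor receptor Kit, at 4266 and 4038 in wild-type and 4815 and 4887 in Bmal1 -/-. The summed value of the blood list was 4396 to 4669 in wild-type and 5443 to 5490 in Bmal1 -/-. Kit made up most of this sum, and without it the sum was 358 to 403 in wild-type and 603 to 628 in Bmal1 -/-.

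Of 12 endothelial markers, 8 passed the filter, 3 rose, 1 fell and 4 were not called, beside 24% higher and 28.6% lower over all genes tested. Tie1, a receptor of vessel endothelium, rose from 65.3 and 71.2 to 918 and 819 (log2 difference 3.65, adjusted p = 1.4e-16), and Pecam1, also made by mESCs, by 0.73. Etv2, which starts the endothelial and blood programme, fell by 0.75 (adjusted p = 0.042), a call lost without Bmal1 -/- replicate 2 (-0.39, adjusted p = 0.39) or wild-type replicate 1 (adjusted p = 0.098). Cdh5, which defines endothelium, had 0 and 0 reads in wild-type and 3 and 1 in Bmal1 -/-. The summed endothelial value was 3515 to 3683 in wild-type and 5681 to 5735 in Bmal1 -/-. Without Pecam1, its highest marker, it was 1749 to 1884 and 2707 to 2797, a rise in which the single gene Tie1 holds a large part. Among trophoblast markers, where Gata2 is also expressed, 1 of the 5 tested rose and 1 fell. Ascl2 rose by 0.58 (adjusted p = 0.029), a call lost without either mutant library or without wild-type replicate 2, where the difference was 0.38 (adjusted p = 0.18). Cdx2 was at 63.2 and 65.9 in wild-type and 39.4 and 37.2 in Bmal1 -/- (-0.74, adjusted p = 0.0043), and the placental Prl3d1 and Tpbpa were at 0 in all libraries. The trophoblast sum was 387 to 392 in wild-type and 399 to 418 in Bmal1 -/-, and without Krt8, its highest marker, 170 to 173 and 163 to 170. For fibroblasts, 2 of 3 tested markers rose, with Fbn1 at 1.06 (adjusted p = 4.0e-06), while Dcn and Lum were at 0, and the sum was 147 to 155 in wild-type and 258 to 271 in Bmal1 -/-. The part of such cells in the values of the members was not tested.

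The chromosomal neighbours of the members were listed as well, 28 genes that overlap a member or are the nearest on either side in the mm9 annotation. Of these neighbours, 13 passed the filter, 4 fell, 2 rose and 7 were not called. Over all genes tested, 28.6% fell and 24% rose, so nothing is read from this count. Of the 4 that fell, Insl3, a hormone gene overlapping Jak3 on the same strand, had the largest difference. Its values were 21.1 and 15.9 in wild-type and 9.39 and 5.72 in Bmal1 -/- (log2 difference -1.21, adjusted p = 0.017), and the call was lost without Bmal1 -/- replicate 2 (adjusted p = 0.13) or wild-type replicate 1 (adjusted p = 0.094). Insl3 passed the filter only through its wild-type libraries. Reads could be split between Insl3 and Jak3 in ways that the table does not show. On either side of Gata2, Rpn1 fell by 0.22 (adjusted p = 8.3e-05) and the nearer Dnajb8 was listed at 0 in all libraries. Gm16786, which overlaps Myb, and Gm11527, next to Gngt2, had 3 reads or fewer and were not tested. The neighbours of Myb and Rasgrp2 that could be tested (Ahi1, Pygm and Nrxn2) were not called, and Nfix, which overlaps Lyl1 on the other strand, rose by 0.93 (adjusted p = 8.8e-05). The Gngt2 interval overlaps Abi3 and that of Lmo2 overlaps 4931422A03Rik, both on the opposite strand and both at 7 reads or fewer.

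The genes most like Gata2 across the 4 libraries, by the Euclidean distance of centred log2 values among 14509 genes, were Rtl1 (0.216), S1pr1 (0.218) and D630039A03Rik (0.232). S1pr1, a lipid receptor of lymphocytes and endothelium, had 30.6 and 40.4 in wild-type and 11.3 and 11.4 in Bmal1 -/-. Those most like Myb were Chrna9 (0.199), Esrp1 (0.266) and Loxl4 (0.289). Chrna9, a subunit of the nicotinic acetylcholine receptor, had 122 and 112 in wild-type and 28.2 and 36.2 in Bmal1 -/-. With 4 libraries under 2 labels, such a likeness mostly repeats the size of the difference between the labels.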

How the data were processed

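The data are mRNA-seq libraries (TruSeq Stranded, paired 75-bp reads) of 2 wild-type and 2 Bmal1 -/- cultures, grouped by their labels. The authors quality-filtered the reads, aligned them to mm9 and scaled gene counts by TMM with NOISeq. The notes of the submitters list bcl2fastq 2.18.0.12, cutadapt 1.9.1 and STAR 2.5.2b, and the counting tool and its strand setting are not given in the sources used here. The deposited values are a normalized signal, reads divided by a factor of each library. Every value was a whole multiple of 1 number per library (tolerance 0.01 of a read), so whole reads were recovered for 100% of values and served edgeR 4.0.16 and DESeq2 1.42.0 as alternatives.

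Differences were fitted with limma 3.58.1 (R 4.3.3; lmFit and eBayes with trend) on log2(value + 1), a scale that understates changes of low genes, for the 14510 genes with a mean of at least 10. Calls needed a Benjamini-Hochberg adjusted p-value under 0.05. The limma step was tested on simulated data. RPKM used the union exon length of the GENCODE annotation of mm9 (NCBIM37), which named all 37310 identifiers; where identifiers shared a symbol, that with most reads was used. Ratios of reads have 95% exact binomial intervals for counting error only. Members and lists were chosen with earlier results of these data known. Spi1, Hras, Tfap2a, Tfap2c, Plet1 and Tfcp2l1 of the lists were not analysed here, and a few list genes are not reported here by name. Named were all members, their tested paralogs, the list genes called over 2-fold or up to 3 with the largest calls either way, markers by the same rule with the highest one, neighbours, and the 3 genes most like Gata2 and Myb; other genes given by value were chosen after their values were seen. Alternatives changed the filter, pseudocount, scaling, model and libraries. The study calls the 2 libraries of a line biological replicates without saying how the cultures were separated. The limma p-values and standard errors rest on the spread between these libraries, drawn towards that of other genes at a similar level. The median prior degrees of freedom were 18.12, more than the libraries themselves supply, so most of each variance was borrowed from other genes. Tables and figures used Python 3.11.15 with pandas 2.3.3, numpy 2.4.6, scipy 1.17.1 and matplotlib 3.10.9.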

Additional observations from a re-analysis of the deposited data

How the results depend on the processing

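The log2 differences of the 7 members past the filter kept their sign under every alternative run. Of these runs, the filter, trend and block settings cannot alter a difference. The groups of these 7 members do not overlap, so neither another pseudocount nor a left-out library can turn a sign. Because 6 of the 7 were chosen for these differences, nothing is read from the kept signs, and only the ranges are informative. Gata2 ranged from -1.85 to -1.40, Myb from -2.22 to -1.62, Jak3 from -1.38 to -1.28, Rasgrp2 from -1.88 to -1.68, Rac2 from -1.24 to -0.85, Gngt2 from -2.01 to -1.21 and Lmo2 from 0.24 to 0.58. For the members under the filter, with single libraries left out, Tal1 ranged from -0.86 to 0.53 and Lyl1 from -1.50 to 0.09, both changing sign, and Runx1 from -0.23 to -0.05. No alternative was added after the data were seen. Of 288 recomputed counts of calls, 220 stayed within 1.5 times, and the cause of the others was not tested except where fewer genes or samples entered by construction.

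With all 4 libraries, genes called lower (4151) came to 2536 with DESeq2, 2515 without the trend and 1061 with no filter on low values, and genes called higher (3488) to 1161 with no filter. Over 2-fold, the higher genes (835) came to 237 at a mean of at least 100 and 375 with no filter, and the lower ones (211) to 81 at a mean of at least 100, 135 with a pseudocount of 10 and 426 with quantile normalization. With no filter, the paralogs were 1 higher and 1 lower (from 7 and 8), the partners 0 and 2 (from 2 and 4), the blood transcription factors 2 and 0 (from 5 and 2), the Rac list 1 and 2 (from 6 and 6), the Rasgrp and Rap1 list 0 and 1 (from 5 and 7), the G protein list 0 and 3 (from 2 and 6) and the Jak-Stat lower genes 3 (from 6). With DESeq2, 4 paralogs were higher, 0 blood factors lower, 0 Jak-Stat genes higher and 3 lower, 3 Rasgrp and Rap1 genes lower and 0 G protein genes higher. Without the trend, 1 partner was higher, 1 blood factor lower, 2 Jak-Stat genes higher and 3 lower, 3 Rac genes higher, 3 Rasgrp and Rap1 genes higher and 3 lower, and 0 G protein genes higher. Quantile normalization gave 4 higher paralogs and 1 higher G protein gene, as did a pseudocount of 10 for the latter. A mean of at least 100 left 1 higher and 2 lower blood factors among 3 tested, and 3 higher Rac genes. A mean of at least 1 gave 1 lower blood factor, 0 higher Jak-Stat genes and 1 higher G protein gene. Lower blood factors were 1 with edgeR, 0 with equal library totals and 1 with median-ratio size factors, and higher Jak-Stat genes 2, 3 and 2.

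With single libraries left out, where a lone library is assumed to vary like the other group, genes higher ranged from 2622 to 3523 and lower from 3199 to 4037, and over 2-fold from 749 to 884 and 207 to 231. Paralogs ranged from 4 to 7 higher and 6 to 8 lower, partners from 1 to 2 and 3 to 4, blood factors from 4 to 5 and 0 to 2, Jak-Stat genes from 0 to 1 and 3 to 5, Rac genes from 3 to 7 and 6 to 6, Rasgrp and Rap1 genes from 4 to 5 and 3 to 8, and G protein genes from 0 to 1 and 3 to 5.

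The sample titles number the libraries of each line as Exp 1 and Exp 2, without saying whether the lines shared an experiment. Deviations of same-numbered libraries correlated at -0.02 over 14510 genes, and the main fit used no pairs. Such a correlation cannot show that the cultures were unpaired. With the replicate number as a block, 2 Jak-Stat genes were higher in place of 1, and no other count moved by over 1.5 times. Of 97 called genes of the lists, families and neighbours, 41 lost their call when a library was left out. Members under about 10 reads limit what depth can show for Tal1, Lyl1 and Runx1.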

Other observations

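Of 11 tested pluripotency markers, which are no blood regulators, 7 fell and 4 rose. The calls of Dppa5a, Fgf4, Klf4, Sox2, Tdgf1 and Zfp42 were lost when a library was left out, and the difference of Dppa5a changed from -0.12 to 0.05 with quantile normalization. Dppa3, a maternal factor that protects methylated DNA, differed most, from 1148 and 1157 in wild-type to 601 and 590 in Bmal1 -/- (log2 difference -0.95, adjusted p = 5.4e-11), and it kept its call under all 16 alternatives. Nanog rose by 0.25 (adjusted p = 8.5e-06, lost only with no filter, at 0.0996) and Tbx3 by 0.36 (adjusted p = 9.5e-07, lost only with no filter, at 0.051). Pou5f1, which encodes Oct4, fell by 0.13 (adjusted p = 0.0062, and up to 0.38 with quantile normalization).

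Blood-cell genes under the filter held further low values. The macrophage growth factor receptor Csf1r had 0 and 1 reads in wild-type and 10 and 11 in Bmal1 -/-. The erythroid gene Alas2 had at most 11 reads in any library. Neither gene was tested, and both were chosen after their values were seen.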
